A study of Mus musculus with 8 samples.

Results

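The voltage-gated sodium, calcium and HCN channels are the pore-forming and auxiliary subunits named by the gene symbols Scn, Cacna1, Cacna2d, Cacnb, Cacng and Hcn. Members were taken as all probesets of the array whose single gene symbol starts with one of these names and a number. The rule gave 54 probesets of 38 genes, of 35512 probesets in all, and 3 further probesets that carry several symbols were left out. Other genes of these families are not analysed here. Of the members, 47 probesets of 31 genes reached the signal minimum of 60 on the linear scale, 5.91 on the log2 scale, in the mean of at least 1 group. The other 7 members, Cacna1f, Cacna1i, Cacna1s, Cacnb2, Scn10a, Scn11a and Scn4b, stayed under it in all 4 groups.

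Sodium channel alpha subunits carry the fast inward current of the action potential, and beta subunits set their gating and place in the membrane. Calcium channel alpha1 subunits form the L-type, P/Q-, N- and R-type, and T-type pores, whose traffic to the membrane depends on alpha2delta and beta subunits. HCN channels pass the inward current that follows hyperpolarization. Dopaminergic neurons of the substantia nigra are autonomous pacemakers, and L-type Cav1.3, T-type and HCN channels are all known to take part in that rhythm.

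The arrays measured midbrain dopaminergic neurons of newborn C57Bl/6 mice (C57Bl/6J in the study's methods), P1 to P4, in which the promoter of tyrosine hydroxylase (Th) drives EGFP from a transgene (Th-EGFP+/-). The substantia nigra pars compacta (SNc) and the ventral tegmental area (VTA) were dissected, and EGFP-positive cells that excluded propidium iodide were sorted. The 4 preparations hybridized in duplicate were SNc KO and VTA KO of genotype Pitx3-/-;Th-EGFP+/-, and SNc WT and VTA WT of genotype Pitx3+/+;Th-EGFP+/-. Pitx3 is a homeodomain transcription factor of these neurons. By the account of the study, Pitx3-positive neurons of the SNc are gone by birth in Pitx3-/- pups whereas those of the VTA still live, so that SNc KO holds the neurons that remain. Sorted cells were stored in batches and pooled into each sample, and nothing states whether duplicates were separate animals, so a p-value covers the spread between these samples only. In such bulk samples, fewer cells of a type and less RNA per cell cannot be told apart.

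Array medians lay between 6.11 and 6.24 on the log2 scale, and 55 to 58.9% of probesets were over the signal minimum. The medians followed the region, at 6.11 to 6.13 in the SNc arrays and 6.17 to 6.24 in the VTA arrays. The VTA KO arrays differed from each other most, with an SD between arrays of 0.376, against 0.241 to 0.252 in the other groups. The probeset of Pitx3 read 7.87 and 7.94 in SNc KO, 7.72 and 7.63 in SNc WT, 8.08 and 7.92 in VTA KO, and 8.10 and 7.84 in VTA WT on the log2 scale. It was not lower in the KO arrays, and since no source used here gives the deleted or the probed part of the gene, it does not check the labels. Among the dopaminergic markers, Th read 10.01 to 10.34 in all 8 arrays, and Slc6a3, the dopamine transporter, was lower in both knockouts (log2 difference -0.98 in SNc and -0.90 in VTA), which did not pass adjustment. Of the 8 markers listed, 7 were lower and 1 higher in SNc KO than in SNc WT. Between VTA KO and VTA WT, 6 were lower and 2 higher in VTA KO. Their summed linear signal was 5626 to 6266 in SNc KO and 7779 to 8396 in SNc WT. It was 5539 to 5708 in VTA KO and 6814 to 6867 in VTA WT.

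No channel probeset passed a Benjamini-Hochberg adjusted p of 0.05 by limma in any comparison. In SNc WT against VTA WT the smallest adjusted p among members was 0.1, and 0.439% of all 22112 probesets tested were called. For SNc KO over SNc WT it was 0.266 with 0.149% of all probesets called, for VTA KO over VTA WT 0.185 with 0.00904%, and for SNc KO over VTA KO 0.142 with 0.149%. For the knockout effect in SNc minus that in VTA it was 0.344 with 0% called. The log2 differences below, with all arrays in the fit, therefore did not pass adjustment. Their size is given with the standard error (SE) of a difference between 2 groups of 2 arrays, and a difference that misses the threshold does not show that the groups were alike.

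At an unadjusted p under 0.05, without adjustment for the number of probesets, member probesets stood mostly on the higher side. In SNc WT against VTA WT 11 members were higher and 3 lower of 47, where 8.59% of all probesets were higher and 10.2% lower. In VTA KO against VTA WT 11 were higher and 2 lower, against 4.73% and 5.51% of all probesets. Most of these were probesets of a single gene, Scn2a, which gave 7 of the 11 in the first comparison and 9 of the 11 in the other. In SNc KO against SNc WT 5 members were higher and 0 lower, against 4.82% and 3.8% of all probesets, and in SNc KO against VTA KO 5 were higher and 2 lower, against 9.73% and 7.81%. Each gene was also counted once, by its probeset of highest mean signal. Then 6 of 31 channel genes reached that p in SNc WT against VTA WT (4 higher, 2 lower), with 20.1% of all genes. The same count was 4 of 31 in SNc KO against SNc WT (4 higher, 0 lower), with 9.02% of all genes. It was 2 of 31 in VTA KO against VTA WT (1 higher, 1 lower), with 9.32%. In SNc KO against VTA KO it was 6 of 31 (5 higher, 1 lower), with 16.4% of all genes. Of all 13264 genes, 1278 were higher and 1388 lower in the first of these comparisons, and 779 and 418 in the second. They were 469 and 767 in the third, and 1503 and 675 in the last. These comparisons share arrays and are not independent of each other.

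**Figure D1:**
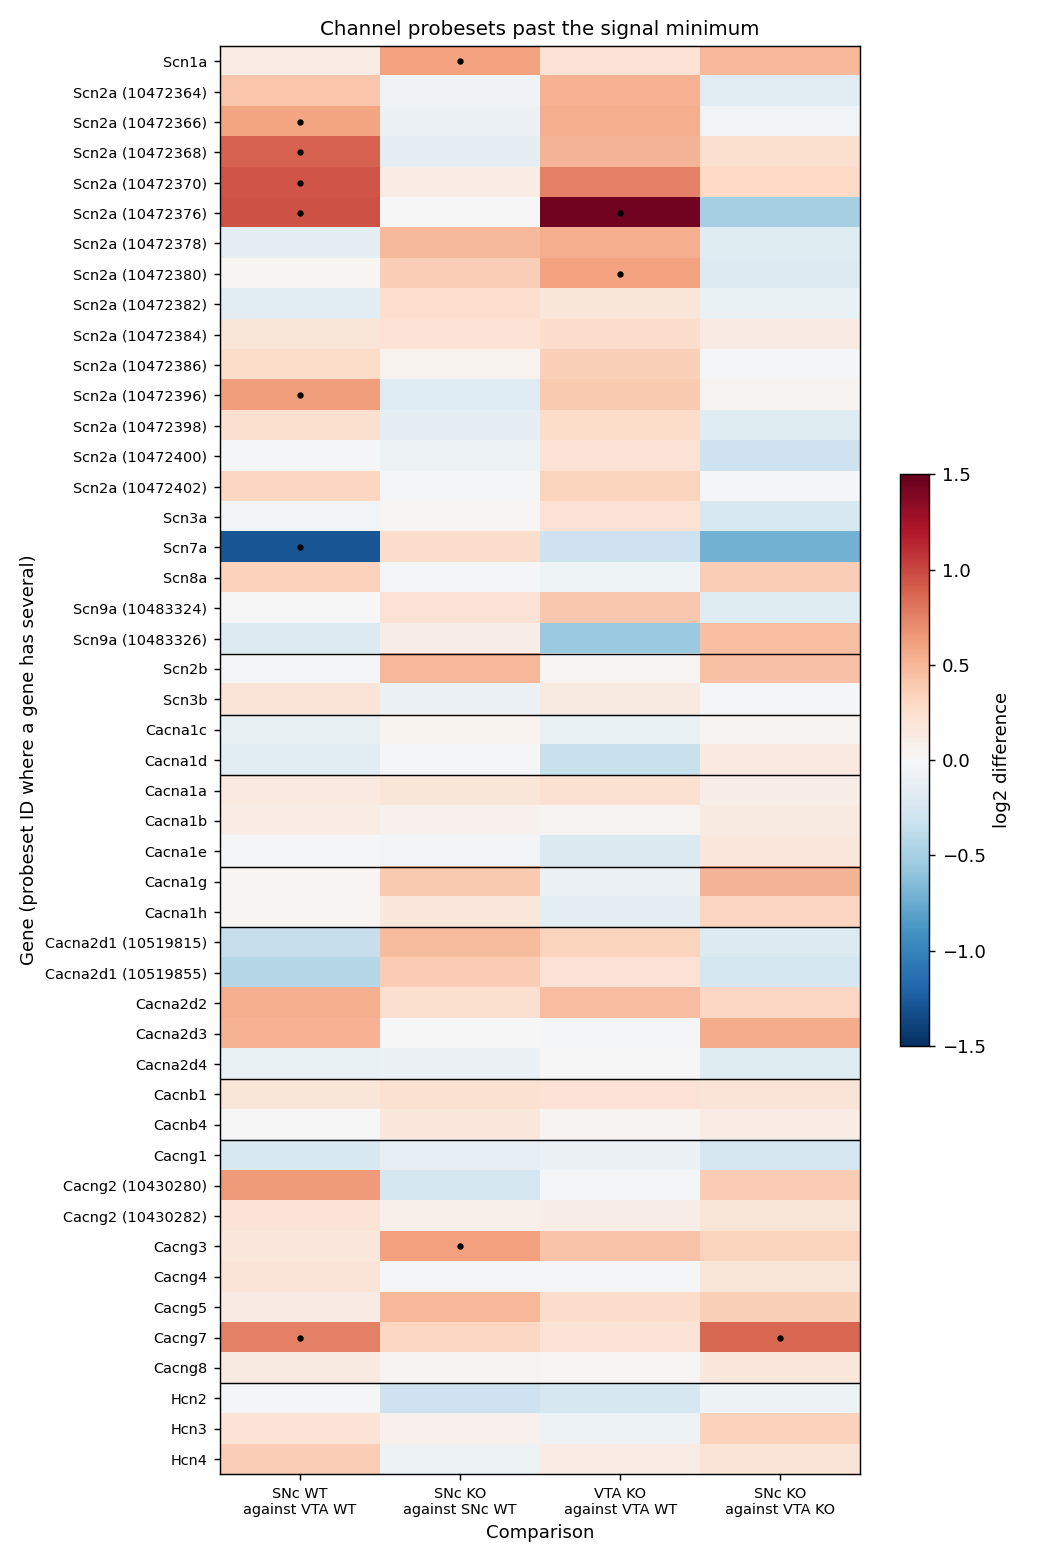
Log2 differences of the 47 channel probesets past the signal minimum (rows, by subunit class) in the 4 comparisons (columns), red for higher and blue for lower in the group named first. Black dots mark the 12 values past the study's thresholds. The rows of Scn2a are red throughout VTA KO against VTA WT, and most are red in SNc WT against VTA WT.

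The study's thresholds combine an unadjusted p of 0.05 or less with a 1.5-fold difference and the signal minimum in one of the groups compared, and they were passed by 7 member probesets in SNc WT against VTA WT, 6 higher and 1 lower. Of all probesets 2.66% passed them as higher there and 3.96% as lower. The numbers were 2 higher and 0 lower in SNc KO against SNc WT (1.84% and 1.76% of all probesets), 2 higher and 0 lower in VTA KO against VTA WT (1.92% and 2.42%), and 1 higher and 0 lower in SNc KO against VTA KO (3.47% and 3.5%). The genes behind them were Scn2a, Scn7a, Scn1a, Cacng3 and Cacng7. The median difference over the 47 members was 0.14, 0.06, 0.20 and 0.13 in these 4 comparisons, beside 0.01, 0.01, -0.02 and 0.04 over all probesets tested. Over the 33 members other than Scn2a it was 0.11, 0.08, 0.03 and 0.18.

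Scn2a encodes Nav1.2, a sodium channel of axons and dendrites that is prominent in young neurons. It is carried by 14 probesets, all past the signal minimum, which read the same RNA samples and are not replicates of each other. Its 2 annotated starts are shown because Scn2a gave most of the members counted above, and that of Scn7a because it is a channel gene of the same chromosome whose window holds the motif searched for. Capitals mark TAATCC, the core that Pitx-type homeodomains bind. The sequences are the 250 bases before and 50 after the start in RefSeq annotation of GRCm38.p6, at chr2:65620519-65620818 (+ strand) and chr2:65668436-65668735 (+ strand) for Scn2a, and at chr2:66784861-66785160 (- strand) for Scn7a.
Scn2a, first start: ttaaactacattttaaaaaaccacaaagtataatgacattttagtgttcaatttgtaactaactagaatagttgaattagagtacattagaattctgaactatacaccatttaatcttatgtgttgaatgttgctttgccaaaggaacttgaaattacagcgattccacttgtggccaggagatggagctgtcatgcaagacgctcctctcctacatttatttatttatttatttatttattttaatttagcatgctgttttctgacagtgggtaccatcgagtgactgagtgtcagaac
Scn2a, second start: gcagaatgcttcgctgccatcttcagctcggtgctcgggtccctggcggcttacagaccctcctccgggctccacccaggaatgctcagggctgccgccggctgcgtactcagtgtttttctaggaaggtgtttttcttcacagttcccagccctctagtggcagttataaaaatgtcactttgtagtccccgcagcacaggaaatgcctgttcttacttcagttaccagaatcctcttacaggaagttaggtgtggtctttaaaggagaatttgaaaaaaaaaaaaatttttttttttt
Scn7a: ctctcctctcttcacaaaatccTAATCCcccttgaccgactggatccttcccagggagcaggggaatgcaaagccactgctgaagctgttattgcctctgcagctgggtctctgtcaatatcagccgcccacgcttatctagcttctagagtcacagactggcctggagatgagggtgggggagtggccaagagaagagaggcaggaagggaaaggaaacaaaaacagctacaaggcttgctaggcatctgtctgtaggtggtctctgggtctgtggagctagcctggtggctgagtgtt
Neither window of Scn2a held TAATCC on either strand, and that of Scn7a held it once. A promoter was found in that table for 29 of the 38 channel genes, and 4 of their 39 promoters (10.3%) held the motif, in Cacna1c, Cacna1s, Cacng8 and Scn7a. Of all 32851 promoters of the same length, 7.06% held it. A match describes these letters only, and a window without one says nothing about the factor.

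Scn2a was lowest in the VTA WT arrays. In VTA KO against VTA WT all 14 probesets were higher in VTA KO, with a median of 0.45 and a range of 0.18 to 1.44. Between SNc WT and VTA WT 11 were higher and 3 lower in SNc WT, with a median of 0.30 and a range of -0.17 to 0.95. In SNc KO against SNc WT the probesets had no common direction, with 6 higher and 8 lower in SNc KO (-0.20 to 0.49, median -0.01), and none at an unadjusted p under 0.05. SNc KO was below VTA KO for 10 of the 14, with a median of -0.08.

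The probeset 10472376 of Scn2a had the widest gap. It read 8.29 and 8.94 in VTA KO against 7.17 and 7.17 in VTA WT, and 7.98 and 8.26 in SNc WT. The SNc KO arrays read 8.00 and 8.23. Both VTA WT arrays lay under the 6 others and both VTA KO arrays above them, while SNc KO and SNc WT overlapped. The log2 difference was 1.44 (SE 0.23, limma adjusted p = 0.185) for VTA KO against VTA WT and 0.95 (SE 0.23, adjusted p = 0.123) for SNc WT against VTA WT. It was -0.01 (SE 0.23, adjusted p = 0.997) for SNc KO against SNc WT. Without VTA KO replicate 1 the first difference was 1.77 (adjusted p = 0.0441), and without VTA KO replicate 2 it was 1.12 (adjusted p = 0.0829). VTA KO is then 1 array, assumed to vary like the other groups, and 69 of all probesets were called in either setting, against 2 with all arrays.

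A further 5 Scn2a probesets passed the study's thresholds, among them 10472366, 10472368, 10472370 and 10472396 in SNc WT against VTA WT. The probeset 10472366 read 8.10 and 8.25 in SNc WT against 7.46 and 7.70 in VTA WT (0.59, SE 0.13), with 8.10 and 8.17 in VTA KO and 8.10 and 8.07 in SNc KO. The probeset 10472396 read 10.21 and 10.04 in SNc WT against 9.39 and 9.61 in VTA WT (0.63, SE 0.13, limma adjusted p = 0.1), with 9.93 and 9.85 in VTA KO and 9.88 and 9.98 in SNc KO. In both, the VTA WT arrays lay under all 6 others. The probeset 10472368 read 8.02 and 8.45 in SNc WT against 7.20 and 7.50 in VTA WT (0.88, SE 0.22), with 8.10 and 7.61 in VTA KO and 8.15 and 8.05 in SNc KO. The probeset 10472370 read 7.25 and 7.96 in SNc WT against 6.20 and 7.12 in VTA WT (0.94, SE 0.35), with 7.44 and 7.39 in VTA KO and 7.88 and 7.54 in SNc KO. Its VTA WT arrays were far apart and again the lowest of the 8. In VTA KO against VTA WT the probeset 10472380 passed beside 10472376. It read 10.36 and 10.36 in VTA KO against 9.92 and 9.60 in VTA WT (0.60, SE 0.18), with 10.24 and 10.07 in SNc KO and 9.58 and 10.01 in SNc WT. Here the arrays of SNc WT and VTA WT overlapped.

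**Figure D2:**
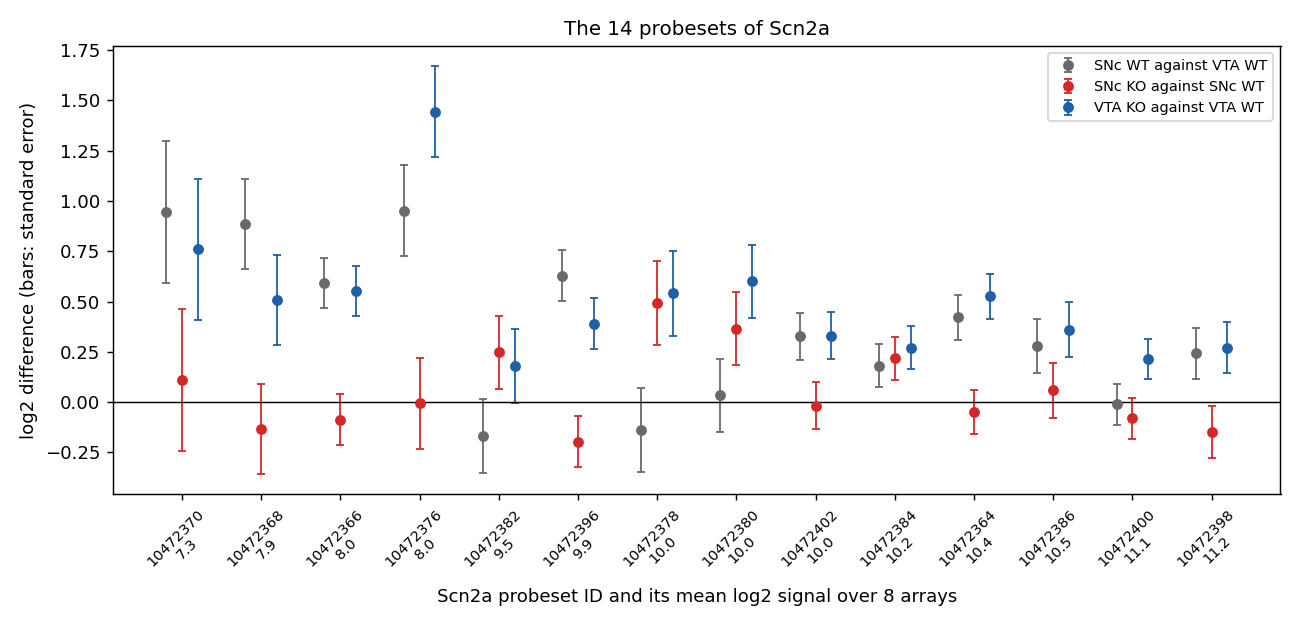
Log2 difference of each of the 14 Scn2a probesets (horizontal axis, ordered by mean log2 signal over 8 arrays) in 3 comparisons, with bars for the standard error. All 14 blue points, VTA KO against VTA WT, lie above 0, whereas the red points of SNc KO against SNc WT lie on both sides of it.

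The size of the difference varied between the probesets, whose places in the gene are not given in the sources used. For the 4 probesets with a mean signal under 9, the median of VTA KO against VTA WT was 0.65 and that of SNc WT against VTA WT was 0.91. For the 10 with a mean of 9 or more it was 0.35 and 0.21. In SNc KO against SNc WT the same medians were -0.05 and 0.02. The probeset of highest signal, 10472398, read 11.52 and 11.21 in VTA KO, 11.07 and 11.12 in VTA WT, 11.19 and 11.19 in SNc KO, and 11.34 and 11.33 in SNc WT. It therefore showed the same order of the VTA groups at a difference of 0.27 (SE 0.13, limma adjusted p = 0.541).

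Single arrays carried part of this. Relative to each probeset's mean over the 8 arrays, the median of the 14 Scn2a probesets was 0.22 and 0.04 in VTA KO, -0.28 and -0.26 in VTA WT, 0.13 and 0.07 in SNc KO, and -0.00 and 0.10 in SNc WT. The first VTA KO array was above the mean for 14 of 14 probesets and the second for 10, against 3 and 0 in VTA WT. With VTA KO replicate 1 left out, 13 of 14 probesets were still higher in VTA KO (median 0.32), and with replicate 2 left out 14 were (median 0.48). The VTA WT arrays were low with either one left out, at 14 of 14 and medians of 0.33 without replicate 1 and 0.43 without replicate 2.

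**Figure D3:**
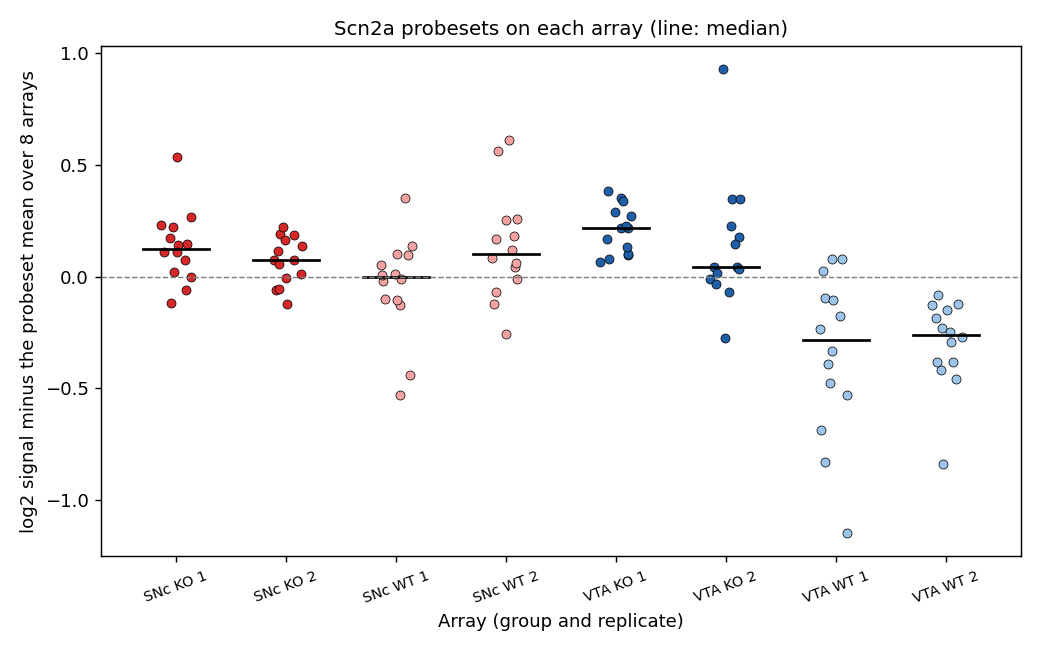
Log2 signal of the 14 Scn2a probesets on each array minus the mean of that probeset over 8 arrays, with a line at the median. The VTA WT arrays lie lowest, with medians of -0.28 and -0.26.

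The knockout effect on Scn2a was lower in SNc than in VTA for 13 of 14 probesets, with a median difference of the effects of -0.38. For 10472376 it was -1.45 (SE 0.32, limma adjusted p = 0.344). At an unadjusted p under 0.05 for this difference stood 4 Scn2a probesets, all lower, and 1 other member, Cacna1g, which was higher. Of all probesets 4.36% were lower and 5.53% higher at that p.

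Markers of other cells differed between the same groups. The summed linear signal of 8 ciliated cell genes was 1551 to 2168 in VTA KO and 2883 to 3200 in VTA WT, with all 8 lower in VTA KO. That of 7 astrocyte and radial glia genes was 1846 to 2702 in VTA KO and 3394 to 3662 in VTA WT. All but Gfap were past the signal minimum. Of these 6, 5 were lower in VTA KO and 1, Aldoc, was higher (0.32). In SNc WT the sums were 874 to 965 for the ciliated cell genes and 2342 to 2424 for the astrocyte and radial glia genes. The log2 difference from VTA WT was there below 0 for 5 of the 6, with Slc1a2 at -0.08, and 0.25 for Aldoc. Fabp7 had the highest signal of the 7 in every array, at 10.26 to 11.27 on the log2 scale, and so weighed most in the linear sum. The 6 pan-neuronal genes summed to 12431 to 12932 in VTA KO and 13140 to 13206 in SNc WT, against 11901 to 12334 in VTA WT. The GABAergic genes Gad1, Gad2 and Slc32a1 summed to 1055 to 1232 in VTA KO and 750 to 762 in VTA WT, and to 1160 to 1275 in SNc KO and 759 to 818 in SNc WT. The glutamatergic genes Slc17a6, Slc17a7 and Slc17a8 summed to 1119 to 1164 in SNc KO and 526 to 631 in SNc WT, and to 1087 to 1238 in VTA KO and 939 to 1074 in VTA WT. The log2 difference of Slc17a6, which encodes a vesicular glutamate transporter, was 1.08 (limma adjusted p = 0.0811) for SNc KO over SNc WT. The sum of 7 pericyte and smooth muscle genes was 1645 to 1822 in SNc KO and 592 to 704 in SNc WT. It was 2118 and 419 in VTA KO, which were far apart, and 1648 to 2285 in VTA WT. The part of these markers in the channel values was not tested.

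Among the other sodium channel alpha subunits, Scn1a, which encodes Nav1.1, read 8.18 and 8.15 in SNc KO against 7.37 and 7.76 in SNc WT. It read 7.41 and 7.94 in VTA KO and 7.43 and 7.49 in VTA WT. The SNc KO arrays were the highest of the 8, and the other groups overlapped. The log2 difference between SNc KO and SNc WT was 0.60 (SE 0.21, limma adjusted p = 0.492), and 0.40 to 0.80 with single arrays left out. Nav1.1 is best known from fast-spiking GABAergic interneurons. The GABAergic, glutamatergic and pericyte sums given above were all higher in SNc KO than in SNc WT, and their part in this difference was not tested.

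Scn7a encodes the sodium-sensing channel Nax, known in the brain from glial and ependymal cells as well as neurons. It read 5.08 and 5.27 in SNc WT, both under the signal minimum, against 6.16 and 6.77 in VTA WT. The log2 difference was -1.29 (SE 0.35, limma adjusted p = 0.148). As the SNc WT values lay under the minimum, which this probeset passed only through the VTA groups, its size was not measured on both sides. In SNc KO it read 5.50 and 5.37, also under the minimum, and in VTA KO 6.65 and 5.65. The VTA KO arrays lay on both sides of the minimum, with the higher one in replicate 1, which also had the higher sums of ciliated cell genes (2168, with 1551 in replicate 2), of astrocyte and radial glia genes (2702, with 1846) and of pericyte and smooth muscle genes (2118, with 419). Their part was not tested.

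The remaining alpha subunits differed less. Scn3a, which encodes the Nav1.3 of the developing brain, lay between 9.24 and 9.65 in all 8 arrays, with its highest value in VTA KO. Scn8a, the Nav1.6 of the axon initial segment, lay between 6.12 and 6.95. Its KO and WT arrays overlapped in both regions, and SNc WT read 6.95 and 6.64 against 6.62 and 6.28 in VTA WT (0.34, SE 0.22). Scn9a, Nav1.7, has 2 probesets that went apart. In VTA KO against VTA WT the probeset 10483324 was higher by 0.41 (SE 0.21) and 10483326 was lower, at -0.56 (SE 0.21). The first read 8.45 and 8.16 in VTA KO against 7.88 and 7.91 in VTA WT, and the other 7.13 and 7.66 against 7.90 and 8.00, so neither pair of groups overlapped and the directions were opposite. Leaving out VTA KO replicate 1 reduced the second to -0.29, and leaving out replicate 2 gave -0.83. Of the beta subunits, Scn3b lay between 10.62 and 10.89, with its lowest arrays in VTA WT. Scn2b read 6.95 and 7.39 in SNc KO against 6.63 and 6.72 in SNc WT (0.49, SE 0.30), with 6.32 and 7.13 in VTA KO and 6.49 and 6.90 in VTA WT.

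**Figure D4:**
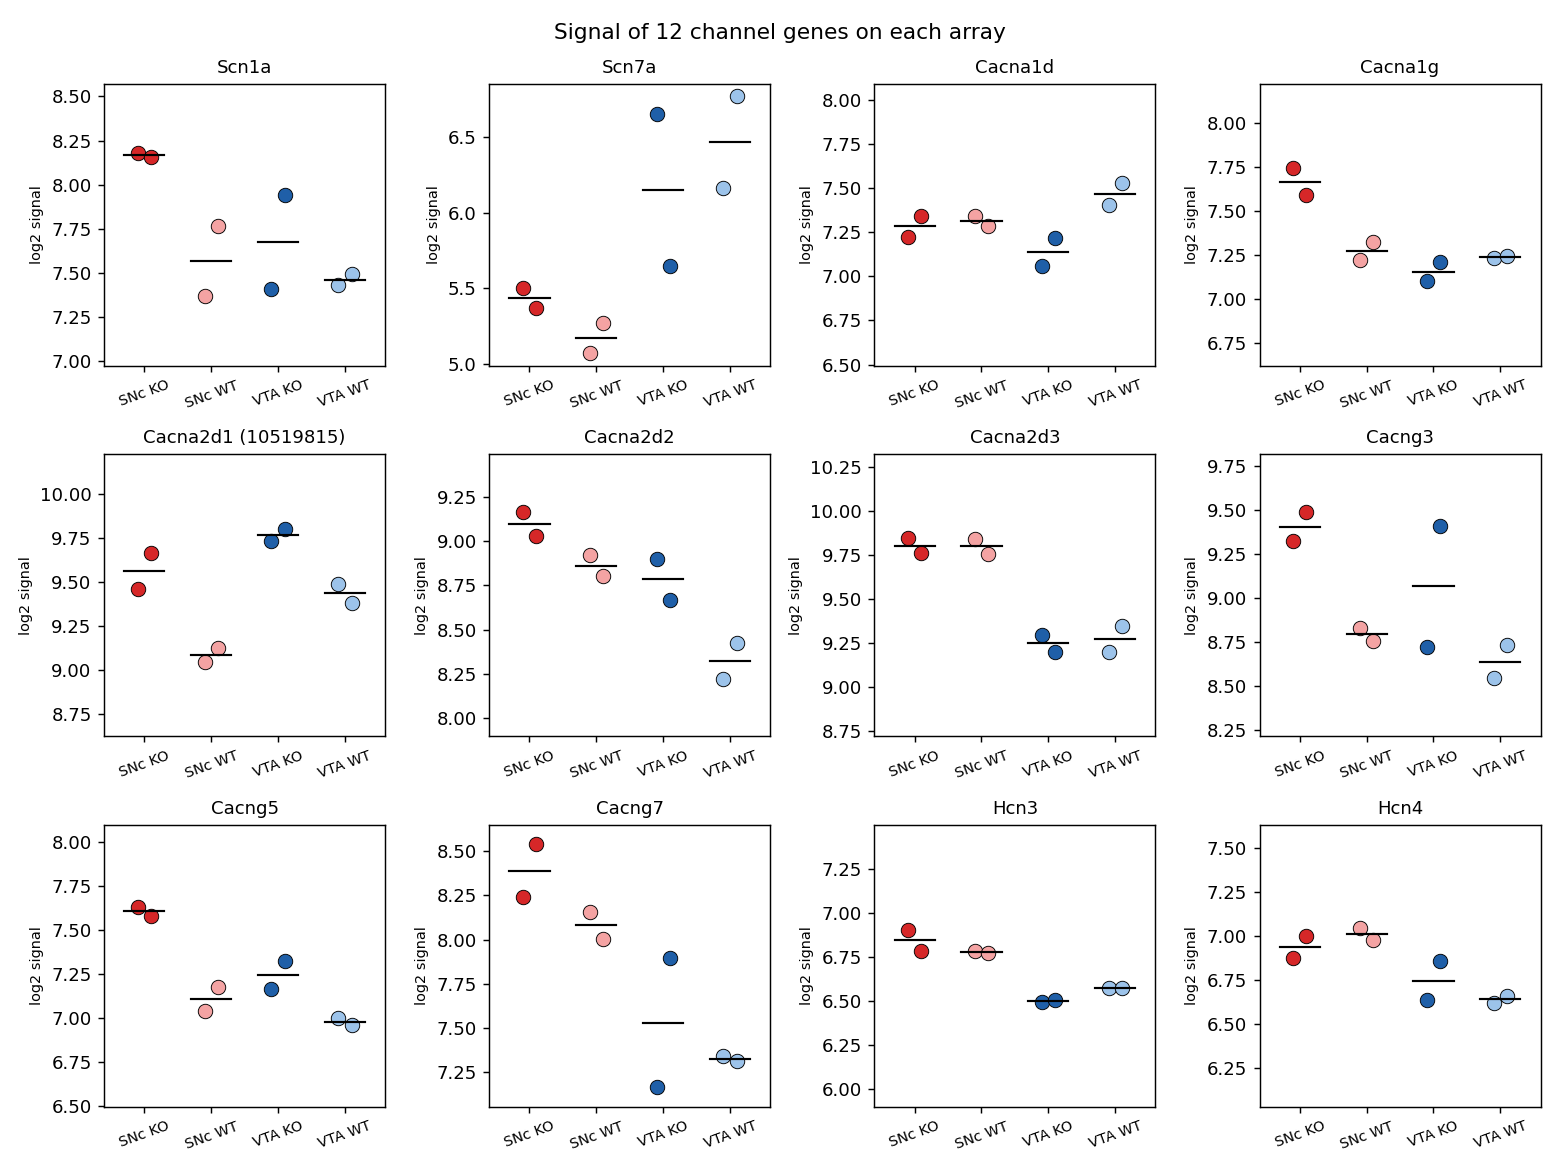
Log2 signal of 12 channel genes on each of the 8 arrays (points, 2 per group) with the group mean (line), each panel on its own range. Scn1a, Cacna1g, Cacng5 and Cacng7 stand highest in SNc KO, and Cacna2d3 stands higher in both SNc groups than in both VTA groups.

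Pore subunits of calcium channels past the minimum had log2 differences of -0.15 to 0.14 in SNc WT against VTA WT, with SEs of 0.10 to 0.16. Cacna1d, which encodes the Cav1.3 of dopaminergic pacemaking, read 7.34 and 7.28 in SNc WT against 7.41 and 7.53 in VTA WT (-0.15, SE 0.12, limma adjusted p = 0.505). In VTA KO it read 7.06 and 7.22, below both VTA WT arrays, at -0.33 (SE 0.12, adjusted p = 0.407), and this was -0.25 without VTA KO replicate 1 and -0.41 without replicate 2. In SNc KO it read 7.22 and 7.34, which overlapped with SNc WT. The other L-type pore past the minimum, Cacna1c of Cav1.2, lay between 7.15 and 7.39 in all arrays.

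The P/Q-, N- and R-type pores serve transmitter release. Cacna1a lay between 7.49 and 7.87, with the highest arrays in SNc KO at 7.84 and 7.87. Cacna1b lay between 8.27 and 8.53. Cacna1e read 8.80 and 8.72 in VTA KO, under the 8.87 to 8.98 of the other 6 arrays, at -0.21 against VTA WT (SE 0.10, limma adjusted p = 0.541).

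The T-type pore Cacna1g, Cav3.1, was highest in SNc KO. It read 7.74 and 7.59 in SNc KO against 7.22 and 7.32 in SNc WT, with 7.10 and 7.21 in VTA KO and 7.23 and 7.25 in VTA WT. The SNc KO arrays lay above all 6 others. The log2 difference was 0.39 (SE 0.11, limma adjusted p = 0.388) against SNc WT and 0.51 (SE 0.11, adjusted p = 0.154) against VTA KO. The knockout effect was 0.48 higher in SNc than in VTA (SE 0.16, adjusted p = 0.458). Cacna1h, Cav3.2, lay between 6.38 and 6.94 with overlapping groups in SNc, and Cacna1i, Cav3.3, lay under the minimum at 5.52 to 5.76.

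The alpha2delta subunits, which bring calcium channels to the membrane, differed between the regions and in both directions. Cacna2d3 read 9.84 and 9.76 in SNc WT against 9.20 and 9.35 in VTA WT, and 9.84 and 9.76 in SNc KO against 9.30 and 9.20 in VTA KO. All SNc arrays lay above all VTA arrays in both genotypes. The differences were 0.52 (SE 0.11, limma adjusted p = 0.106) and 0.55 (SE 0.11, adjusted p = 0.142), and the knockout effects were 0.00 in SNc and -0.03 in VTA.

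Cacna2d2 read 8.92 and 8.80 in SNc WT against 8.22 and 8.42 in VTA WT (0.54, SE 0.14, limma adjusted p = 0.136). In VTA KO it read 8.90 and 8.67 (0.46 against VTA WT, SE 0.14, adjusted p = 0.333), and in SNc KO 9.17 and 9.03. The VTA WT arrays lay under the 6 others. Without VTA KO replicate 1 the VTA difference was 0.35, and without replicate 2 it was 0.58.

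Cacna2d1, a gabapentin-binding subunit that neurons express widely, went the other way between the regions. Its probeset 10519815 read 9.05 and 9.13 in SNc WT against 9.49 and 9.38 in VTA WT, at -0.35 (SE 0.12, limma adjusted p = 0.204). It was higher in both knockouts, with 9.46 and 9.67 in SNc KO (0.48, SE 0.12, adjusted p = 0.312) and 9.73 and 9.80 in VTA KO (0.33, SE 0.12, adjusted p = 0.41). No pair of groups overlapped in these 3 comparisons. The second probeset, 10519855, had the same direction in all of them, at -0.43, 0.38 and 0.21, with 9.84 and 9.87 in SNc KO, 9.70 and 9.26 in SNc WT, 10.04 and 10.19 in VTA KO, and 9.83 and 9.98 in VTA WT. Cacna2d4 stayed near the signal minimum, at 5.80 to 6.10. The beta subunits bind the pore subunit on its intracellular side. Of these, Cacnb1 lay between 7.71 and 8.24 with SNc KO highest (8.10 and 8.24) and VTA WT lowest (7.71 and 7.80). Cacnb4 lay between 7.95 and 8.40, and its values of 8.24 and 8.34 in SNc KO were just above the 8.07 and 8.19 of SNc WT (0.16, SE 0.16).

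Most Cacng genes encode partners of AMPA receptors (TARPs) rather than parts of calcium channels, and Cacng1 belongs to the channel of skeletal muscle. Cacng7 read 8.16 and 8.01 in SNc WT against 7.34 and 7.31 in VTA WT (0.76, SE 0.24, limma adjusted p = 0.192). It read 8.24 and 8.54 in SNc KO against 7.16 and 7.89 in VTA KO (0.86, SE 0.24, adjusted p = 0.193). All SNc arrays lay above all VTA arrays. The second difference rests in part on a pair of VTA KO arrays that were far apart, since it was 0.50 without replicate 1 and 1.23 (limma adjusted p = 0.0314) without replicate 2. In that setting VTA KO is 1 array, assumed to vary like the other groups, and 1390 of all probesets were called, against 33 with all arrays.

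Cacng3 read 9.32 and 9.49 in SNc KO against 8.83 and 8.76 in SNc WT (0.61, SE 0.23, limma adjusted p = 0.521), with 8.72 and 9.41 in VTA KO and 8.54 and 8.73 in VTA WT. Cacng5 read 7.63 and 7.58 in SNc KO against 7.04 and 7.18 in SNc WT (0.50, SE 0.11, adjusted p = 0.266). In VTA KO it read 7.17 and 7.32, and in VTA WT 7.00 and 6.96. Both genes had their SNc KO arrays above both SNc WT arrays, and for Cacng5 above all 6 others. The 2 probesets of Cacng2, stargazin, had opposite signs in the knockouts. They differed by -0.27 (SE 0.32) and 0.08 (SE 0.14) in SNc KO against SNc WT, and both had positive differences between SNc WT and VTA WT, 0.63 (SE 0.32) and 0.20 (SE 0.14). The first probeset read 9.90 and 9.07 in SNc WT, so that its duplicates were farther apart than the groups. Cacng4 lay between 7.91 and 8.40, Cacng8 between 7.27 and 7.91, and Cacng1 between 5.75 and 6.17, close to the minimum.

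Hcn4 read 7.04 and 6.97 in SNc WT against 6.62 and 6.66 in VTA WT (0.37, SE 0.12, limma adjusted p = 0.196). In SNc KO it read 6.87 and 7.00 and in VTA KO 6.63 and 6.86. Hcn3 read 6.90 and 6.78 in SNc KO against 6.50 and 6.51 in VTA KO (0.34, SE 0.10, adjusted p = 0.198), and 6.78 and 6.77 in SNc WT against 6.57 and 6.57 in VTA WT (0.20, SE 0.10). For both genes every SNc array lay above every VTA array. Hcn2 lay between 5.89 and 6.50, near the minimum, with lower values in SNc KO (6.16 and 5.89) than in SNc WT (6.31 and 6.35) at -0.30 (SE 0.15, adjusted p = 0.681).

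A list of 35 further genes held partners and regulators of these channels, the separate sodium leak channel complex, and calcium extrusion genes. Of these, 31 were on the table. The 24 past the minimum included 4 of the leak channel complex and 6 of calcium extrusion. None of the 24 passed adjustment by limma in any comparison. At an unadjusted p under 0.05, 7 were higher and 0 lower in SNc WT against VTA WT, 5 higher and 4 lower in SNc KO against SNc WT, 1 higher and 0 lower in VTA KO against VTA WT, and 4 higher and 0 lower in SNc KO against VTA KO. Of all probesets, 8.59% were higher and 10.2% lower at that p in the first of these comparisons, 4.82% and 3.8% in the second, 4.73% and 5.51% in the third, and 9.73% and 7.81% in the last. Each gene of the list was counted by its probeset of highest mean signal. Of all 13264 genes counted so, 1278 were higher and 1388 lower at that p in the first comparison, and 779 and 418 in the second. They were 469 and 767 in the third, and 1503 and 675 in the last. The median difference of the list was 0.16, 0.03, 0.02 and 0.15. It was 0.01, 0.01, -0.02 and 0.04 over all probesets, and 0.02, 0.03, -0.03 and 0.08 over all genes. Pex5l, which encodes the HCN partner TRIP8b, read 8.00 and 8.42 in SNc WT against 7.37 and 7.54 in VTA WT (0.76, adjusted p = 0.118), and 7.50 and 7.69 in SNc KO, at -0.62 (adjusted p = 0.394) relative to SNc WT. The SNc WT arrays were the highest of the 8. Fgf13, an intracellular partner of sodium channels, read 10.22 and 10.35 in SNc KO against 10.76 and 10.75 in SNc WT (-0.47, adjusted p = 0.312). Nalcn, the sodium leak channel, read 8.42 and 8.46 in SNc KO against 7.96 and 8.00 in SNc WT (0.46, adjusted p = 0.227). In these 3 genes the SNc KO and SNc WT arrays did not overlap. For VTA KO against VTA WT, Pex5l (-0.34) and Nalcn (0.18) moved in the same directions, again without overlap. The Fgf13 arrays overlapped there (-0.01). The lists did not move as a whole between SNc KO and SNc WT. Of 6 sodium channel partners tested, 2 had differences above 0, Fgf12 (0.40) and Fgf14 (0.34), and 4 below. Of the 4 leak channel genes, 3 were above 0 and 1, Fam155a, below (-0.36). The 6 calcium extrusion genes past the minimum were the pumps Atp2b1, Atp2b2 and Atp2b3 and the exchangers Slc8a1, Slc8a2 and Slc8a3. All 6 had differences above 0 in SNc WT against VTA WT (0.05 to 0.33) and in SNc KO against SNc WT (0.03 to 0.34). So did all 6 in SNc KO against VTA KO (0.08 to 0.36), and 5 of 6 in VTA KO against VTA WT (-0.06 to 0.39). Of all 13264 genes tested, 6978, 7587, 8180 and 5773 were above 0 in these 4 comparisons, in that order.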

How the data were processed

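Each of 4 sorted preparations gave duplicate RNA samples, which were amplified with the WT-Ovation Pico kit for Affymetrix Mouse Gene 1.0 ST arrays. The deposited values are log2 expression values, which the authors made with RMA, so that a probeset's values depend on all arrays processed together. Neither the version of RMA Express nor a genome build is given in the sources used here. Levels of different probesets were used only to order them or to pick 1 for a gene. Symbols came from the platform annotation. All 54 probesets of the members had a gene ID in the gene table of GRCm38.p6, and 0 symbols changed.

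The limma package (3.58.1, in R 4.3.3, lmFit and eBayes) was fitted to 8 arrays, with 1 mean per group, 4 residual and 2.4 prior degrees of freedom. Probesets entered, 22112 in number, where the mean of any group reached 60 on the linear scale, and p-values were adjusted over all of them by Benjamini-Hochberg. The study's methods name the local pooled error test, which was not used here. Their p threshold is printed as 0.05 or more but used as 0.05 or less, as was done here. Probesets past these thresholds were named with every value, and the main pore and auxiliary subunits whatever their values. The members, lists and comparisons were chosen with earlier results of these data known. The alternatives tried were no signal filter, a minimum of 120, equal medians, quantile normalization, a variance trend, array weights, the replicate number as a block, the arrays of 2 groups alone, each array left out, and the median over the probesets of a gene. The precision is that of 2 arrays per group.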

Additional observations from a re-analysis of the deposited data

Results flagged for a closer look

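For 5 channel probesets the knockout effect differed between SNc and VTA at an unadjusted p under 0.05, although none passed adjustment by limma. The difference of the effects, SNc minus VTA, was 0.477 for Cacna1g (adjusted p = 0.458). It was -0.575 for Scn2a probeset 10472364 (adjusted p = 0.391), -0.638 for 10472366 (0.402), -1.45 for 10472376 (0.344) and -0.587 for 10472396 (0.429). Of all probesets tested, 5.53% were higher and 4.36% lower at that p. For the 4 probesets of Scn2a the SNc effect was between -0.20 and -0.01 and the VTA effect between 0.39 and 1.44.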

How the results depend on the processing

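With 2 arrays per group, single arrays decide which channel probesets pass. At an adjusted p under 0.05 by limma, 0 passed in each comparison (14, 5, 13, 7 and 5 at an unadjusted p under 0.05), and array weights gave 5 in SNc WT against VTA WT (3 probesets of Scn2a, Scn7a and Cacna2d3), where it called 847 of 22112 probesets in all, against 97 with equal weights. With single arrays left out the numbers were 0 to 1 in SNc WT against VTA WT, where dropping either VTA KO array gave 1. They were 0 to 1 in VTA KO against VTA WT, with 1 when the first VTA KO array was dropped, and 0 to 1 in SNc KO against VTA KO, with 1 when the second was. The probeset was Scn2a 10472376 in the first pair of comparisons and Cacng7 in the last. A group left with 1 array is assumed to vary like the others, and calls over all probesets then moved as well, to 436 and 428 from 97 in the first comparison, to 69 from 2 in the second and to 1390 from 33 in the last. The numbers stayed at 0 in the other comparisons. At the study's thresholds, leaving out single arrays gave 3 to 7 probesets in SNc WT against VTA WT, where 7 passed with all arrays and 3 without VTA WT replicate 1. It gave 0 to 2 in SNc KO against SNc WT (2 with all arrays, 1 without SNc WT replicate 1, 0 without either SNc KO array) and 2 to 5 in VTA KO against VTA WT (2 with all arrays, 4 without VTA WT replicate 2, and 5 or 4 on dropping the first or the second VTA KO array). It gave 1 to 7 for SNc KO over VTA KO (1 with all arrays, 2 without either SNc KO array or the first VTA KO array, 7 without the second VTA KO array). For SNc WT over VTA WT, where 7 passed with the values as deposited, equal array medians gave 9 and quantile normalization gave 5. By quantile normalization 1 passed for SNc KO over SNc WT, and 2 for SNc KO over VTA KO, where equal array medians gave 3. The cause was not tested. The correlations of deviations from the group means between same-numbered arrays lay between 0.00577 and 0.098, so no strong shared shift was seen. They cannot show whether same-numbered samples came from the same animals, which is not stated. With the replicate number as a block, 0 probesets passed adjustment in any comparison, and 7, 2, 2 and 1 passed the study's thresholds. The difference of the knockout effects needs all groups and has no value with 2 groups alone, and Scn7a, Cacng1 and Hcn3 have none at a minimum of 120. Of 44 single differences at an unadjusted p under 0.05, 16 kept it in every setting that gives a p. The other 28 lost it in at least 1, with 0 changes of direction. Most of the 16 were of Scn2a. The median over the probesets of a gene gives no p and is not in this count. For genes with several probesets it left 13 differences much the same and moved 13. Among those moved was Scn2a 10472366 in SNc WT against VTA WT, from 0.59 to 0.30. Signals near 5.91 on the log2 scale, as for Scn7a, Cacng1, Cacna2d4 and Hcn2, limit what can be seen.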
